A study of Mus musculus with 4 samples.

Results

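B lineage cells, which make immunoglobulin or are the precursors of the cells that do, were described in single-cell RNA-Seq libraries of the mouse digit tip (P3) after amputation. A cell was counted as a member when at least 1 unique molecular identifier (UMI, 1 captured RNA molecule) was found in 2 or more of 6 genes. These were Cd79a and Cd79b, the signaling chains of the B cell receptor, Pax5, the transcription factor that holds cells in the lineage, and Vpreb1, Vpreb3 and Igll1, which belong to the immature receptor. The rule found 245 members among 93602 cells, or 0.262%, kept with 200 to 5500 detected genes, at most 30000 UMIs and at most 10% mitochondrial UMIs. The 6 genes chose the members, so their levels are given as a description and were not tested.

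All libraries came from hindlimb digits of female C57BL/6 mice aged 6 to 8 weeks, and each library pooled the digits of 10 mice. In the LNR library the inguinal and popliteal lymph nodes had been removed surgically, and the sham library was its control, labelled as untreated. The study describes node removal in 1 hindlimb with the opposite limb of the animal as sham, so LNR and sham digits may come from the same mice, which the labels do not say. In the SAR131675 library the mice ate chow with 30 mg/kg of SAR131675, an inhibitor of the lymphatic growth factor receptor VEGFR3, and control_diet was the matched chow, also labelled as untreated. The series' design text gives 8 days for this diet, whereas the study's methods have it begin before amputation and continue throughout, so the time on the diet at collection is uncertain. Digits were cut off at the base of the second phalanx, so tissue proximal to P3 was included, and red blood cells were lysed before capture. Each of the 4 libraries carries a batch number of its own, so condition, batch and library cannot be told apart, and differences between conditions are given with counting intervals and without a test.

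B cells develop in bone marrow from progenitors that first rearrange the immunoglobulin heavy chain gene with the recombinase subunits Rag1 and Rag2 and the polymerase Dntt. A pre-B cell pairs that heavy chain with the surrogate light chain, made of the Vpreb1 and Igll1 proteins, until a kappa or lambda light chain gene has been rearranged. Immature B cells with surface IgM leave the marrow and complete their maturation mainly in the spleen. Mature follicular B cells carry IgM and IgD, the surface protein Ms4a1 (CD20), the low-affinity IgE receptor Fcer2a (CD23) and MHC class II, and circulate through lymph nodes guided by Ccr7 and Cxcr5. Plasma cells secrete immunoglobulin, joined into polymers by the J chain (Jchain).

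The rule gave 46 members in LNR, 56 in sham, 88 in SAR131675 and 55 in control_diet. Their shares of kept cells were 0.232% in LNR (95% exact binomial interval 0.170 to 0.309), 0.271% in sham (0.205 to 0.352), 0.303% in SAR131675 (0.243 to 0.373) and 0.229% in control_diet (0.172 to 0.298). These intervals cover counting error only and overlap between all 4 libraries. The log2 ratio of the share was 0.40 for SAR131675 over control_diet (95% exact interval -0.10 to 0.92) and -0.22 for LNR over sham (-0.82 to 0.36), so neither pair differed beyond counting error. In an alternative, cells with at least 1500 UMIs were thinned to 1500 and shallower cells were left out. Only 29 of the 46 LNR and 26 of the 56 sham members were that deep before thinning. The LNR to sham ratio of the share then turned to 0.30 (-0.73 to 1.36), and selection by depth and thinning cannot be told apart in it. Members were fewer than T cells in every library, at 0.362 members per T cell in LNR, 0.431 in sham, 0.772 in SAR131675 and 0.611 in control_diet. Fewer cells of a type and a changed yield from the digestion cannot be told apart.

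The label held against genes that the rule did not use. Of the members, 45 of 46 in LNR, 52 of 56 in sham, 87 of 88 in SAR131675 and 50 of 55 in control_diet had a UMI in at least 2 of 12 other B lineage genes, among them Ebf1, Blnk, Cd22, Cd72, Fcrla, Blk, Spib, Pou2af1, Ms4a1, Bank1 and Ighm. No member had UMIs in 2 of the T cell receptor genes Cd3d, Cd3e and Cd3g, and 2 had a UMI in 1 of them. When only supported members were counted the SAR131675 to control_diet ratio of the share was 0.52 (95% exact interval 0.01 to 1.06), because 5 of the 11 unsupported members lay in control_diet. The 82 members with exactly 2 rule genes had a median of 3 to 6 supporting genes by library, whereas the 1180 kept cells with exactly 1 rule gene had a median of 1. Of the latter, 16 in LNR, 24 in sham, 46 in SAR131675 and 30 in control_diet had 2 or more supporting genes. Keratinocyte Krt5 or Krt14 was found in 57.1 to 87.2% of the cells with 1 rule gene and in 61.5 to 84.7% of those with 0. Members held it too, in 36.0 to 52.9% of those with 2 rule genes and 38.5 to 57.9% of those with 3, at lower median depth.

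**Figure D1:**
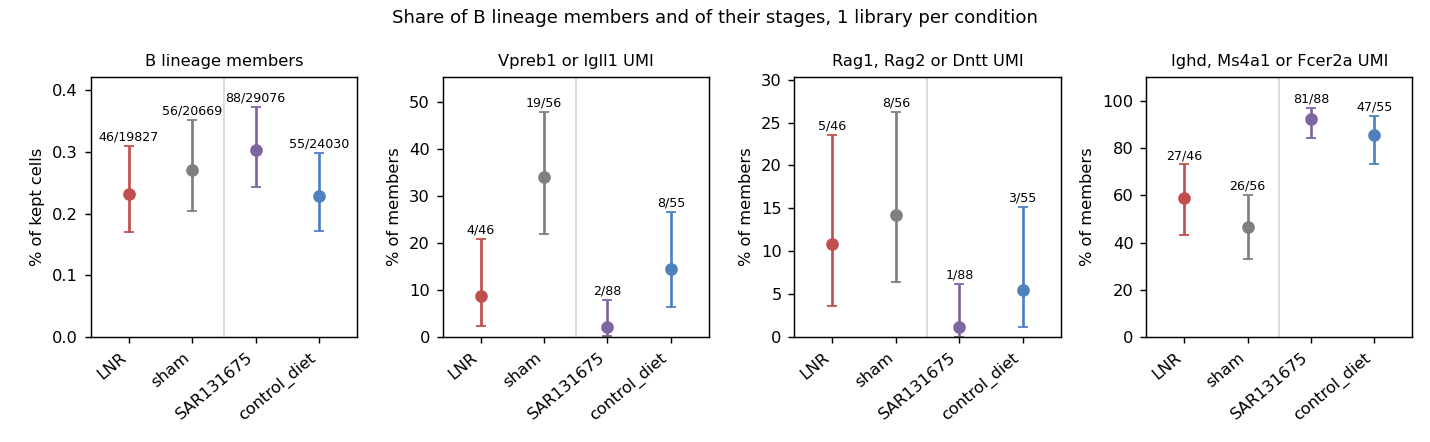
Share of B lineage members among kept cells and of stage genes among members in each library, in percent. Points are single libraries and bars are 95% exact binomial intervals, which for the member share overlap between all 4 libraries, whereas surrogate light chain members range from 2.27% in SAR131675 to 33.9% in sham.

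The libraries differed in depth. Members had a median of 1602.5 UMIs in LNR and 1415 in sham but 3558 in SAR131675 and 3548 in control_diet, and all kept cells had medians of 5725, 5851, 11316 and 10712. Ptprc (CD45), the leukocyte phosphatase, had a UMI in 43.5% and 32.1% of members in the surgery pair and in 92.0% and 72.7% in the diet pair. Cell Ranger 6.1.2 stands in the file headers of the surgery pair and 8.0.1 in those of the diet pair, and genes such as Pax5 and Bank1 were found far more often in the second, so levels were compared only within a pair or within a library.

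Cd79a was found in 46 of 46 members in LNR, 55 of 56 in sham, 85 of 88 in SAR131675 and 51 of 55 in control_diet. Its summed level was 899 CPM (counts scaled to a common library total) in LNR, 898 in sham, 708 in SAR131675 and 659 in control_diet. Cd79b was found in 38, 44, 67 and 35 members in the same order. Pax5 was found in 13 of 46 LNR members and 23 of 56 sham members but in 83 of 88 SAR131675 and 49 of 55 control_diet members. This gap follows the pairs and not the treatments. Vpreb3, a partner of the nascent receptor that is kept somewhat longer than the surrogate light chain, was found in 21 of 46 LNR, 29 of 56 sham, 21 of 88 SAR131675 and 21 of 55 control_diet members. Igll1 was found in fewer members of each library than these 4 genes, with UMIs in 4 LNR, 19 sham, 1 SAR131675 and 5 control_diet members. Vpreb1 is listed in the files as Vpreb1a, and its near-identical copy Vpreb1b may share its reads, so the level of either is uncertain.

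**Figure D2:**
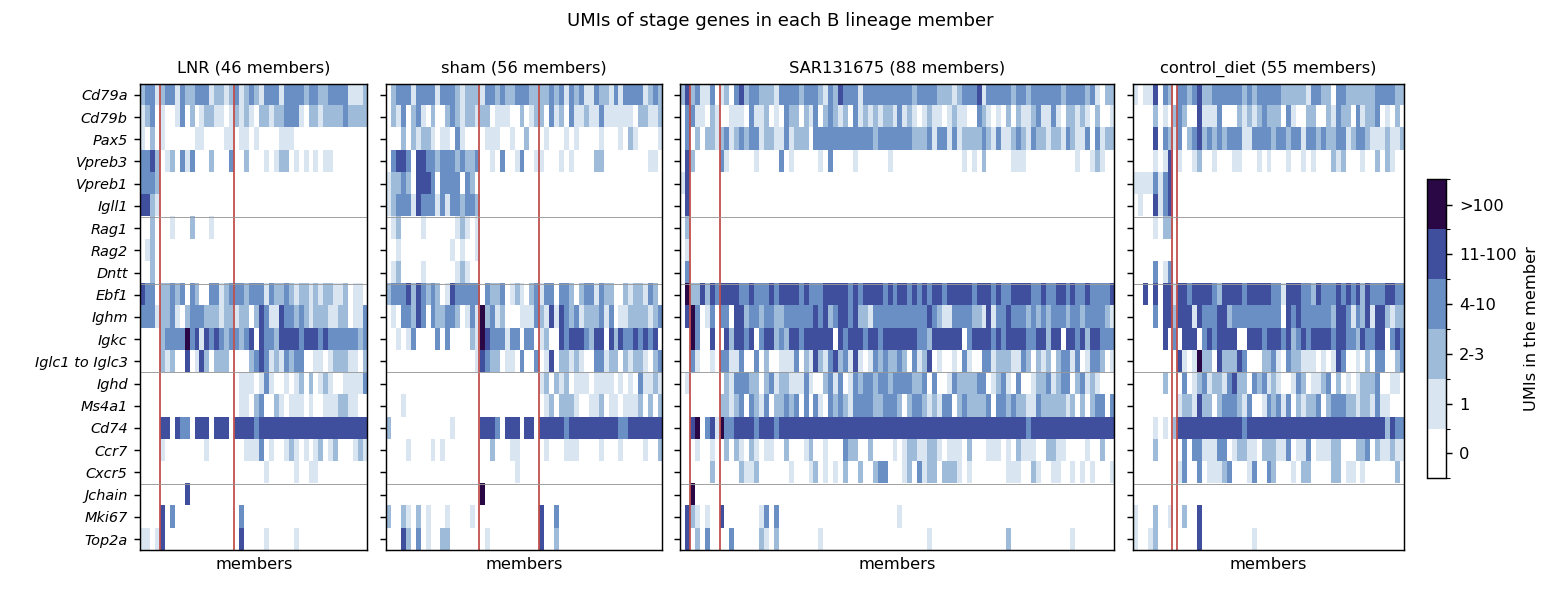
UMIs of stage genes in each of the 245 members, 1 column per member, grouped by library, with red lines between surrogate light chain members, members with neither set of stage genes and members with Ighd, Ms4a1 or Fcer2a. The surrogate light chain block is widest in sham, with 19 of 56 members, and nearly all its columns are empty for Cd74.

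Stage genes split the members into groups that were nearly exclusive. A surrogate light chain UMI (Vpreb1 or Igll1) was present in 33 members, 178 others had Ighd, Ms4a1 or Fcer2a, and 34 had neither. A member with both sets, of which sham, SAR131675 and control_diet had 1 each, was counted with the surrogate light chain, and those of SAR131675 and control_diet also held a recombination gene. Rag1, Rag2 or Dntt had a UMI in 14 of the 33 surrogate light chain members, in 0 of the 178 mature members and in 3 of the 34 others. An immunoglobulin light chain constant-region UMI was present in 8 of the 33 and in 176 of the 178. Cd74, the invariant chain of MHC class II, was found in 4 of the 33 and in all 178, although the surrogate light chain members were the deeper cells, with a median of 5127 UMIs against 3159. Ighm, the heavy chain of IgM, was found in 23 of the 33 and 173 of the 178. Cells with UMIs in 2 or more of Mki67, Top2a, Cdk1 and Birc5, genes of dividing cells, were 9 of 33 and 9 of 178, while 14.4 to 20.05% of the deeper Krt5 or Krt14 cells met the same rule.

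The surrogate light chain share was 8.70% in LNR (4 of 46, 95% exact binomial interval 2.42 to 20.8), 33.9% in sham (19 of 56, 21.8 to 47.8), 2.27% in SAR131675 (2 of 88, 0.276 to 7.97) and 14.5% in control_diet (8 of 55, 6.50 to 26.7). Krt5 or Krt14 cells, meaning kept cells outside the members with a UMI of Krt5 or Krt14, had median depths of 7423 to 12095 UMIs. They held a UMI of Vpreb1 or Igll1 in 0.368 to 0.696%. As non-members they could hold at most 1 rule gene, so for these 2 genes the value is no independent background. In both pairs the control library was higher. The log2 ratio was -1.96 for LNR over sham (95% exact interval -3.98 to -0.37) and -2.68 for SAR131675 over control_diet (-5.95 to -0.35). These genes belong to the rule, each condition is 1 pool of mice, and the intervals hold counting error only.

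The members behind the 2 ratios were unlike. In sham, 18 of the 19 surrogate light chain members had at least 2 supporting genes, 16 held 3 or more UMIs of Vpreb1 and Igll1 together and 17 held Vpreb3. The last 2 counts rest on genes of the rule and are a description. All 4 LNR members also held 3 or more UMIs, so the ratio at that threshold was -1.72 (95% exact interval -3.76 to -0.08). In control_diet, 5 of the 8 had exactly 1 UMI in each of 2 rule genes, 0 or 1 supporting genes and 8964 to 26689 UMIs in the cell. With supported members the SAR131675 to control_diet ratio was -1.38 (-4.97 to 1.74), with 3 or more UMIs it was -2.26 (-7.98 to 1.38), and with cells thinned to 1500 UMIs it was -2.16 (-7.87 to 1.48). With supported members the LNR to sham ratio was -2.38 (-4.78 to -0.60), and with thinned cells it was -1.42 (-3.57 to 0.42) on 4 of 19 and 9 of 16 members. With at least 3 rule genes the LNR to sham ratio was -1.43 (-3.46 to 0.17), and among members with a Ptprc UMI it was -2.47 (-8.04 to 0.69). The direction was the same under each of these settings in both pairs. In the surgery pair the interval reached 0 under some of them. In the diet pair it reached 0 under all of them, on 1 or 2 SAR131675 and 2 or 3 control_diet members. These ratio intervals suit rare counts and are too wide for high shares, such as 9 of 16.

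Within sham, 4 of 5 early genes with enough UMIs were higher in surrogate light chain members than in the others, where 857 of 1410 genes of any kind were higher. Fibroblast genes were higher too, 4 of 4 with a median log2 difference of 3.13, and their part in the result was not tested. The surrogate light chain members of sham were the deeper cells, with a median of 4658 UMIs against 1296 in the others. Counts of cells with a UMI favor deeper cells, and the part of depth in the counts below was not tested. Rag1 was found in 7 of 19 and in 0 of the 37 other sham members, and Dntt in 6 of 19 and 0 of 37. Lef1 and Myb, transcription factors of early lymphoid precursors, were found in 11 of 19 and 0 of 37, and in 10 of 19 and 1 of 37. Ebf1, the factor that opens the B lineage program, did not divide the classes in this way, with 18 of 19 and 29 of 37. Cd74 stood at 30.4 CPM against 5457 CPM, a log2 difference of -7.49 (95% exact interval -9.77 to -5.94), and H2-Aa, a class II chain, at 20.3 CPM against 1905 CPM. Ighd was found in 0 of 19 and 19 of 37. In control_diet, Rag1 and Dntt were each found in 3 of 8 surrogate light chain members and in 0 of 47 others, all 3 being the members with 4 or more supporting genes. Depth differed there too, with a median of 15631 UMIs in the 8 against 3208 in the 47. Only sham and control_diet had at least 5 cells in both classes, fewer than the 3 libraries that a test needed, so the classes are described and were not tested.

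Under the rule as given, mature members were the largest class in every library. In sham this order turned with at least 3 rule genes, at 12 mature and 18 surrogate light chain members of 35, and in thinned cells, at 3 and 9 of 16. Both settings favor surrogate light chain members, so no conclusion on the order was drawn from them. Vpreb1 and Igll1 are themselves rule genes, which makes 3 rule genes easier to reach. Thinning left out shallower cells, and sham mature members had a median of 1332 UMIs against 4658 in surrogate light chain members. Ighd, Ms4a1 or Fcer2a had a UMI in 27 of 46 members in LNR (58.7%, 95% exact binomial interval 43.2 to 73.0), 26 of 56 in sham (46.4%, 33.0 to 60.3), 81 of 88 in SAR131675 (92.0%, 84.3 to 96.7) and 47 of 55 in control_diet (85.5%, 73.3 to 93.5). Krt5 or Krt14 cells held one of these genes in 0.0600 to 0.199%. The log2 ratio was 0.34 for LNR over sham (-0.49 to 1.17) and 0.11 for SAR131675 over control_diet (-0.43 to 0.66). These ratio intervals suit rare counts and are too wide for shares this high. The binomial intervals of the shares themselves overlapped in each pair. Rag1, Rag2 or Dntt was found in 5 LNR, 8 sham, 1 SAR131675 and 3 control_diet members. Sdc1, Prdm1 or Jchain, often used for plasma cells, had a UMI in 18.2 to 27.3% of members but in 66.8 to 73.5% of Krt5 or Krt14 cells. Whether the latter cells express these genes or hold free RNA of them was not tested, so this combined share was not read as a count of plasma cells.

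Light chains divided the members further. A UMI of Igkc (kappa) or Iglc1 to Iglc3 (lambda) was found in 42 of 46 LNR, 43 of 56 sham, 83 of 88 SAR131675 and 47 of 55 control_diet members. Of the 189 members with at least 5 light chain UMIs, 128 had at least 80% kappa, 15 had at least 80% lambda and 46 lay between. The lambda share was 5.88% in LNR (2 of 34), 12.5% in sham (4 of 32), 6.41% in SAR131675 (5 of 78) and 8.89% in control_diet (4 of 45), or 7.94% in all (95% exact binomial interval 4.51 to 12.8). The 4 intervals overlapped. Iglc1 led in 10 of the 15 lambda members, Iglc2 in 4 and Iglc3 in 1, and since Iglc2 and Iglc3 are nearly identical, reads may have been split between them.

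**Figure D3:**
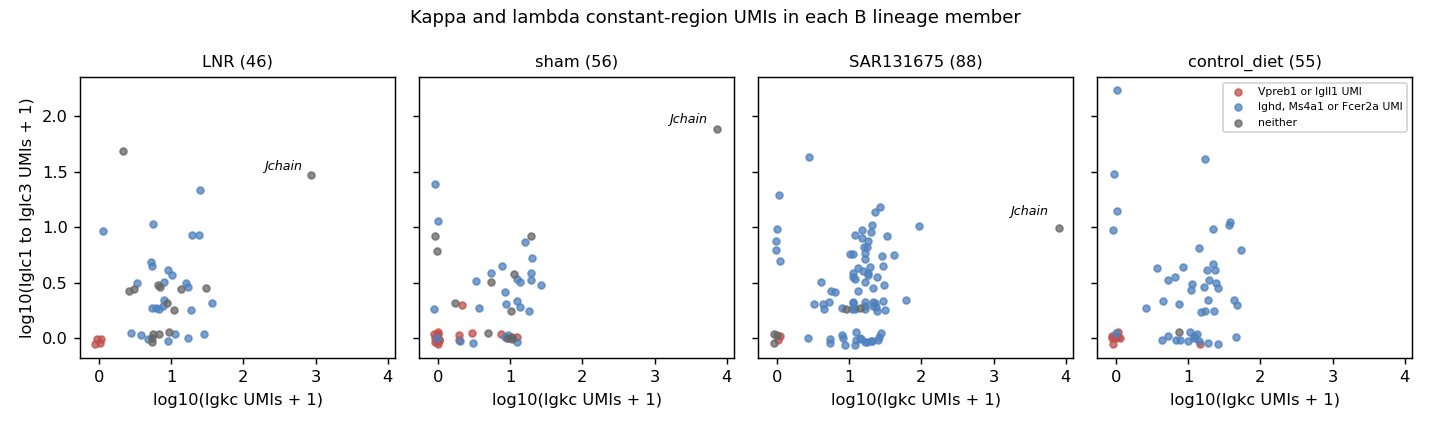
Kappa (Igkc) against lambda (Iglc1 to Iglc3) UMIs on a log10(UMIs + 1) scale in each member, 1 panel per library. Most members lie along the kappa axis, and 1 member each of LNR, sham and SAR131675 stands far to the right with 828, 6597 and 7241 kappa UMIs.

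Ighm was found in 224 of 245 members. Ighm and Ighd, the pair of naive B cells, were found together in 16 of 46 members in LNR, 19 of 56 in sham, 64 of 88 in SAR131675 and 35 of 55 in control_diet. A switched isotype (Ighg, Igha or Ighe) was found in 8 of all members. Heavy chain V genes had UMIs in 52 members, led by 33 different genes, and kappa V genes in 47 members, led by 32 different genes. The V genes were thus spread over the members, with 12 of the 33 heavy and 10 of the 32 kappa genes leading in more than 1 member. Counts of single V genes are uncertain, because reads of such similar genes can be assigned to the wrong copy.

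In 3 libraries, 1 Jchain-rich member held a large share of the immunoglobulin UMIs. One LNR member held 78 Jchain UMIs, 828 kappa UMIs and 554 UMIs of the switched heavy chain Ighg2b among its 4426 UMIs. One sham member held 692 Jchain, 6597 kappa and 1639 Ighm UMIs, kappa alone being 50.95% of its 12948 UMIs. One SAR131675 member held 637 Jchain, 7241 kappa and 2305 Ighm UMIs among 16262. No control_diet member had 10 Jchain UMIs. These 3 members carried 68.1%, 95.2% and 85.1% of the kappa UMIs of their libraries' members, whereas the other members had a median of 6 kappa UMIs in LNR, 4 in sham, 13 in SAR131675 and 10 in control_diet. The same members held 1.32% of the Ighm UMIs in LNR, 90.6% in sham and 81.6% in SAR131675. Ighm was 817 CPM in LNR, 8126 CPM in sham, 5281 CPM in SAR131675 and 1320 CPM in control_diet. The log2 ratio of Ighm was -3.31 for LNR over sham with these members and 0.03 without them, and 2.00 for SAR131675 over control_diet with them and -0.40 without. For Igkc the same pairs of values were -2.24 and 0.43, and 2.96 and 0.25. The ratios of both genes thus changed sign or came close to 0 once 1 cell each of LNR, sham and SAR131675 was left out.

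Members were next compared with the T cells of the same libraries, 127 in LNR, 130 in sham, 114 in SAR131675 and 90 in control_diet, each with UMIs in 2 or more of Cd3d, Cd3e and Cd3g. UMIs were summed per library and class and tested with edgeR's quasi-likelihood test with the library as a block, 4 sums against 4, and p-values were adjusted by Benjamini-Hochberg over all 8757 genes. Of these, 351 were higher in members (4.01%), 526 were lower (6.01%) and 10.0% were called in either direction. The rule genes and the 3 Cd3 genes were left out. Because the members were chosen by B lineage genes, the genes of that lineage check the label and are not an independent finding.

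Of the 12 other B lineage genes, 11 were higher than in T cells. Ms4a1 stood at 146, 130, 454 and 399 CPM in members of LNR, sham, SAR131675 and control_diet and at 0 in the T cells of all 4 (adjusted p = 0.00013, edgeR). Against the 3 UMIs that a count of 0 allows in a library, a limit used for all such bounds, Ms4a1 was at least 23.6-fold higher in each library. Bank1, a scaffold of B cell receptor signaling, stood at 114, 40.4, 1636 and 1173 CPM against 0 in all 4 (adjusted p = 6.91e-05, edgeR), and its level followed the pair. It was at least 22.9-fold higher in LNR, 7.31-fold in sham, 475-fold in SAR131675 and 262-fold in control_diet. Blk, a kinase also used by T cells of the gamma delta type, was the exception, at 48.7, 18.0, 234 and 237 CPM against 13.2, 31.3, 154 and 188 (log2 0.58 +/- 0.29 SE, adjusted p = 0.287, edgeR). The median log2 difference of the list was 6.07, or 4.01 with the 4 genes at 0 in T cells set to their lowest bound in any library, against 0.03 over all genes.

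The mature B cell list had 14 of 16 genes higher and 1 lower. Fcer2a stood at 65.0, 35.9, 157 and 136 CPM against 0 in every library, at least 6.50-fold higher in each (adjusted p = 0.000485, edgeR). Fcmr, the receptor for IgM, was at least 15.4-fold higher in each library (adjusted p = 0.000218, edgeR), and Tnfrsf13c, the receptor for the survival factor BAFF, differed by 6.75 +/- 0.58 on the log2 scale (adjusted p = 0.000183, edgeR). Gpr183, an oxysterol receptor that positions lymphocytes, was the lower gene at 27.1, 27.0, 135 and 56.5 CPM against 164, 90.3, 233 and 297 (log2 -1.64 +/- 0.32, adjusted p = 0.0115, edgeR), and without control_diet its adjusted p was 0.0532.

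Of 22 receptor signaling genes, 12 were higher and 1 was lower than in T cells. Btk, the kinase downstream of the receptor, stood at 43.3, 35.9, 164 and 141 CPM in members and at 0, 0, 1.15 and 0 CPM in T cells (log2 7.50 +/- 0.49, adjusted p = 6.12e-05, edgeR). Syk, which docks on Cd79a and Cd79b, stood at 168, 108, 353 and 410 CPM against 6.62, 0, 4.59 and 11.9 (log2 5.56 +/- 0.36, adjusted p = 6.12e-05), and the adaptor Blnk differed by 5.61 +/- 0.34. Bcl10 and Malt1, which both lymphocyte types use, had log2 differences of 0.15 +/- 0.18 and 0.12 +/- 0.43 and did not pass the test (adjusted p = 0.719 and 0.934).

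Antigen presentation separated members from T cells. Of 10 MHC class II genes 9 were higher, and the median log2 difference was 4.27. Cd74 stood at 4136, 3050, 4976 and 4280 CPM in members and at 1111, 20.3, 29.8 and 322 CPM in T cells (log2 4.96 +/- 0.95, adjusted p = 0.0108, edgeR). The T cell sums of LNR and control_diet were above the other two, and those 2 libraries also had the highest erythroid Hbb-bs in T cells, at 1483 and 1439 CPM against 31.3 and 45.9. Macrophages express class II genes, and in LNR T cells the macrophage genes C1qa and C1qb stood at 151 and 71.2 CPM, against 1.15 to 11.1 and 1.15 to 3.69 in the other 3 libraries. T cells with at least 10 UMIs of the 6 macrophage genes were 5 in LNR, 0 in sham and 1 each in SAR131675 and control_diet, and the part of such cells in the Cd74 level was not tested. H2-Ob, a subunit of the peptide-loading regulator H2-O, differed by 7.33 +/- 0.54 (adjusted p = 7.97e-05). The exception, H2-DMb1, differed by 1.63 +/- 0.56 (adjusted p = 0.116).

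Homing genes went both ways, with 6 of 12 tested genes higher and 4 lower. Cxcr5, which leads B cells to follicles, stood at 21.7, 4.49, 123 and 144 CPM against 0, 0, 1.15 and 1.49 (log2 6.44 +/- 0.45, adjusted p = 6.91e-05, edgeR). Ccr7, the lymph node entry receptor, stood at 152, 76.4, 140 and 277 CPM against 8.28, 7.37, 24.1 and 14.9 (log2 3.54 +/- 0.32, adjusted p = 0.000242). The adhesion receptor Cd44 stood at 75.8, 108, 189 and 141 CPM against 290, 271, 1019 and 868 (log2 -2.04 +/- 0.24, adjusted p = 0.000804), and the integrin subunits Itgal and Itgb7 were lower by -2.13 +/- 0.25 and -2.78 +/- 0.27. Members thus carried more of the lymph node receptors and less of these adhesion genes than the T cells of the digit.

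T cell genes were lower by the definition of the reference class, with 7 of 7 tested. Trdc, the delta chain constant region, stood at 684 to 927 CPM in T cells and 0 in members, at least 42.1-fold lower in the members of each library (adjusted p = 6.79e-05, edgeR). Trbc1 stood at 181 to 275 CPM and Trac at 60.8 to 169 CPM in T cells, and both were at 0 in members. Among the genes with the largest fitted falls were Trdv4, Trat1, Trgc1, Cd7, Scart1, Camk4 and Il23r, all with 0 UMIs in members. The bound on the fall was 0.917-fold for Camk4 in LNR, and 0.510-fold in LNR and 0.957-fold in sham for Il23r. No fall was thus shown there, and Il23r was not called by DESeq2. The largest rises were led by Igkc, whose log2 difference was 12.67 +/- 0.32 (adjusted p = 2.28e-07), and included Mzb1, a chaperone of IgM assembly, at least 25.3-fold higher in each library. Of 24 cell division genes 0 passed the test with edgeR, 0 had an unadjusted p under 0.05 and 0 were called by DESeq2, and Mki67 stood at 141, 148, 107 and 70.7 CPM against 67.9, 86.6, 194 and 185 (log2 -0.09 +/- 0.39, adjusted p = 0.947). Of 7 keratinocyte genes 0 passed the test with either tool and 2 had an unadjusted p under 0.05, and of 6 fibroblast genes 0 passed at any of these levels. Of 5 macrophage genes 0 passed with edgeR, 3 had an unadjusted p under 0.05 and 1 was called by DESeq2. Over all 8757 genes, 1938 had an unadjusted p under 0.05 with edgeR and 698 were called by DESeq2.

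**Figure D4:**
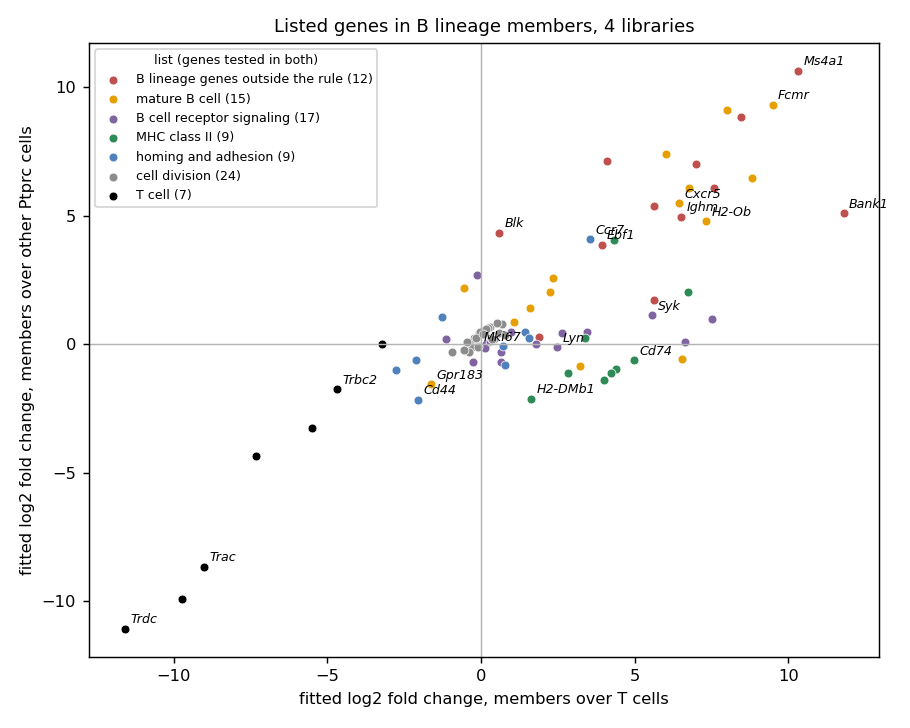
Fitted log2 fold change of listed genes in members over T cells (x axis) against members over other Ptprc cells (y axis), colored by list, with the same members in both comparisons. B lineage genes lie to the upper right, T cell genes to the lower left, and MHC class II genes lie right of 0 but on both sides of 0 on the y axis; genes with 0 UMIs in a class are plotted at fitted values, which are no bounds.

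The second reference was every other kept cell with a Ptprc UMI, 1560 in LNR, 1411 in sham, 1641 in SAR131675 and 1164 in control_diet, T cells included. The same test over 14339 genes called 505 higher (3.52%), 1520 lower (10.6%) and 14.1% in either direction. DESeq2 gave 635 higher and 1114 lower, so 36.3% of its calls were higher against 24.9% of edgeR's. Both comparisons use the same members.

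MHC class II took the opposite direction here for its main chains. Of 10 genes 6 were lower and 3 higher. Cd74 stood at 4136, 3050, 4976 and 4280 CPM in members against 4820, 5869, 6401 and 6519 (log2 -0.62 +/- 0.11, adjusted p = 0.0015, edgeR; 0.054 with DESeq2). H2-Ab1 stood at 1029, 624, 1144 and 809 CPM against 1958, 2444, 2188 and 2117 (log2 -1.39 +/- 0.16, adjusted p = 0.000119), and H2-DMb1, a subunit of the peptide exchanger H2-DM, was lowest at -2.11 +/- 0.31. H2-Ob, at 146, 85.3, 183 and 170 CPM against 4.46, 4.59, 4.96 and 5.56, was higher by 4.79 +/- 0.26 (adjusted p = 3.68e-07), as were H2-Oa by 4.04 +/- 0.39 and H2-DMb2 by 2.03 +/- 0.24. In these sums over all members, the classical chains were thus lower and the H2-O subunits higher than in the other leukocytes. The sums weigh deep members most and mix stages. By library, the median share of a member's UMIs in MHC class II genes was 1.57 to 2.55% in mature members. In surrogate light chain members it was 0.0115 to 0.0459%. Mature members alone were not tested against the other leukocytes.

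B lineage genes were higher in 11 of 12 cases and mature genes in 12 of 16. Pou2af1, a coactivator of immunoglobulin genes, differed by 7.12 +/- 0.38 (adjusted p = 3.29e-07, edgeR) and Blk, which did not differ from T cells, by 4.33 +/- 0.34 (adjusted p = 7.9e-06). Cd72 was the exception at 48.7, 62.9, 57.9 and 45.2 CPM against 25.5, 36.1, 53.4 and 48.1 (log2 0.29 +/- 0.27, adjusted p = 0.541). Of 13 recombination and early genes 7 were higher and 3 lower. Rag1, at 32.5, 40.4, 3.74 and 14.1 CPM, had 0 UMIs in 5776 other Ptprc cells (adjusted p = 0.000139) and was at least 44.9-fold higher in LNR, sham and control_diet, with 2 UMIs in SAR131675, and Myb differed by 3.21 +/- 0.36 (adjusted p = 8.34e-05). Vpreb1b also had 0 UMIs there and was at least 106-fold higher in LNR and sham, the libraries with over 3 UMIs, a value tied to its copy in the rule.

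Myeloid genes were lower. All 6 macrophage genes passed the test, led by Adgre1 (F4/80) at 0, 8.98, 15.0 and 0 CPM in members against 125, 116, 204 and 223 CPM (log2 -4.73 +/- 0.49, adjusted p = 5.33e-05, edgeR). Of 7 neutrophil genes 6 were lower, and Camp stood at 0 in all members, at least 25.9-fold lower in each library. Among 24 cell division genes only Hmgb2 was called, at 1104, 1541, 404 and 336 CPM against 640, 640, 340 and 230 (log2 0.62 +/- 0.18, adjusted p = 0.0326), and its adjusted p was 0.107 without LNR, 0.162 without sham and 0.165 with called doublets removed.

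The study asked how lymphatic loss acts on osteoclasts, the cells that resorb bone, so regulators of these cells were read in the members. Against T cells 1 of 8 tested regulators was higher and 2 were lower, and against other Ptprc cells 1 of 13 was higher and 4 were lower. Tnfsf11 (RANKL), the inducing ligand, had a UMI in 1 of 245 members, a control_diet surrogate light chain member with 22 UMIs, and 0 in the members of the other 3 libraries. A count of 0 allows up to 16.2 CPM in LNR, 13.48 in sham and 5.61 in SAR131675 (3 UMIs), while T cells stood at 23.2, 55.3, 130 and 149 CPM. Against T cells it was called lower (log2 -2.88 +/- 0.76, adjusted p = 0.0448, edgeR), and its adjusted p was 0.0839 without LNR, 0.0796 without sham, 0.109 without SAR131675, 0.0661 with supported members and 0.0695 with DESeq2. Without control_diet, which holds the 1 member with UMIs, all members were at 0 and the adjusted p was 0.00255 (edgeR). Against other Ptprc cells the log2 difference was 0.27 (adjusted p = 0.897, edgeR), and without control_diet the gene was called lower (adjusted p = 0.0372). Tnf stood at 21.7, 4.49, 20.6 and 5.65 CPM in members against 59.6, 38.7, 166 and 165 in T cells (log2 -3.04 +/- 0.42, adjusted p = 0.00196) and 160, 155, 123 and 139 in other Ptprc cells (log2 -3.48 +/- 0.36, adjusted p = 5.44e-05). Il6, an inflammatory cytokine, stood at 70.4, 18.0, 28.0 and 8.48 CPM in members against 18.2, 3.69, 3.44 and 0 CPM in T cells (log2 2.55 +/- 0.56, adjusted p = 0.0211, edgeR), and its adjusted p was 0.0541 with called doublets removed. In LNR 10 of its 13 UMIs lay in 1 member. Il1b and Tnfrsf11a (RANK) were also lower than in other Ptprc cells, by -5.18 +/- 0.45 and -4.14 +/- 0.44. Ltb (lymphotoxin beta) was the gene of this list that was higher there, at 92.0, 103, 107 and 110 CPM against 21.4, 17.7, 27.1 and 19.6 (log2 2.18 +/- 0.24, adjusted p = 6.82e-05). Tgfb1, found in 12, 22, 54 and 36 members, did not differ from either class (adjusted p = 0.207 and 0.864).

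Levels in members were then compared between the libraries of each pair, as ratios of summed CPM over genes with at least 20 UMIs in the pair. Each library is 1 pool, so no ratio has a replicate check. Of 2667 genes in LNR and sham, 6.49% were over 2-fold higher in LNR and 4.39% over 2-fold lower. Of 6893 genes in SAR131675 and control_diet, 5.72% were over 2-fold higher in SAR131675 and 5.72% over 2-fold lower. Many of the largest ratios came from 1 cell. Hbb-bs, a globin, had 434 UMIs in sham members, 424 of them in 1 member, against 12 in LNR, and Krt17 had 729 UMIs in control_diet, 723 in 1 member, against 9 in SAR131675. Members with at least 10 UMIs of the 7 keratinocyte genes were 9 in LNR, 11 in sham, 20 in SAR131675 and 8 in control_diet, those with 10 of the 6 macrophage genes were 1, 3, 3 and 0, and those with 10 of the 6 fibroblast genes were 7, 4, 4 and 6. The part of such cells or doublets in the ratios was not tested.

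Igll1 and Vpreb3 helped choose the members, so their ratios are a description. Igll1 summed to 146 CPM for LNR and 427 CPM for sham (log2 ratio -1.55, 95% exact interval -2.22 to -0.92) and Vpreb3 at 352 and 701 CPM (-0.99, -1.43 to -0.57). Of 6 early genes with enough UMIs all 6 were lower in LNR, with a median of -0.61 on the log2 scale with 0.5 UMIs added, where 48.2% of all genes were lower. With no upper limits 5 of 6 were lower. Il7r, the receptor for the growth factor of B cell precursors, stood at 16.2 CPM in LNR on 3 UMIs and 94.3 CPM in sham on 21 UMIs, 11 of them in 1 member. Surrogate light chain members were 4 in LNR and 19 in sham, and among those members alone, on the scale with 0.5 UMIs added, the Igll1 ratio was 0.52 and the Vpreb1a ratio 0.45.

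Of 11 mature B cell genes with enough UMIs 9 were higher in LNR, with a median of 0.39, and of 6 homing genes 4 were higher, with a median of 0.91. With no upper limits on genes and UMIs, 5 of the 11 mature genes were higher, with a median of -0.16, and 4 of the 6 homing genes, with a median of 0.29. All 8 MHC class II genes with enough UMIs were higher, with a median of 0.65, where 51.8% of all genes were higher. Cd74 summed to 4136 CPM for LNR and 3050 CPM for sham (log2 ratio 0.44, 95% exact interval 0.29 to 0.59). Ccr7 stood at 152 and 76.4 CPM (28 and 17 UMIs) and Klf2, a factor that keeps naive lymphocytes circulating, at 287 and 135 CPM (53 and 30 UMIs). The level within a mature member was close to even, with a median of 2.55% of UMIs in MHC class II genes in LNR and 2.48% in sham. When the upper limits on genes and UMIs were dropped, 4 deep LNR cells and 1 sham cell were added and 5 of 8 genes of the list were higher, with a Cd74 ratio of -0.13.

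Igll1, which the rule used, was lower in the treated library of the diet pair as well. It stood at 46.7 CPM in SAR131675 and 136 CPM in control_diet (log2 ratio -1.54, 95% exact interval -2.30 to -0.81), with all 25 SAR131675 UMIs in 1 member. Of 12 homing genes 8 were higher in SAR131675 with a median of 0.12, and with supported members 4 were, with a median of -0.25. Ccr7 stood at 140 and 277 CPM (-0.98), the opposite of its direction in the surgery pair, a difference that was not tested, and Gpr183 at 135 and 56.5 CPM (1.25). All 10 MHC class II genes were higher in SAR131675, with a median of 0.36, where 51.4% of all genes were higher. With supported members the list split evenly, 5 each way, around a median of -0.03, and the Cd74 ratio turned from 0.22 to -0.17, and the median MHC class II percentage of a mature member was 1.57 in SAR131675 and 1.97 in control_diet. The list's direction thus did not hold when the 5 deep control_diet members with at most 1 supporting gene, and the 1 such SAR131675 member, were left out. All 12 division genes with enough UMIs were higher in SAR131675, with a median of 0.52. With supported members 10 of 12 were, with a median of 0.23, and with no upper limits 22 of 23, with a median of 1.52. By the rule above, 8 of 88 members in SAR131675 and 3 of 55 in control_diet were dividing (log2 ratio 0.74, 95% exact interval -1.32 to 3.29). The ratio was 0.25 with called doublets removed (5 of 77 and 3 of 55). In thinned cells it turned to -0.57 (1 of 55 and 1 of 37). C1qa, C1qb and Pf4, genes of macrophages, had 77, 69 and 113 UMIs in 4, 5 and 4 SAR131675 members and 0 in control_diet.

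**Figure D5:**
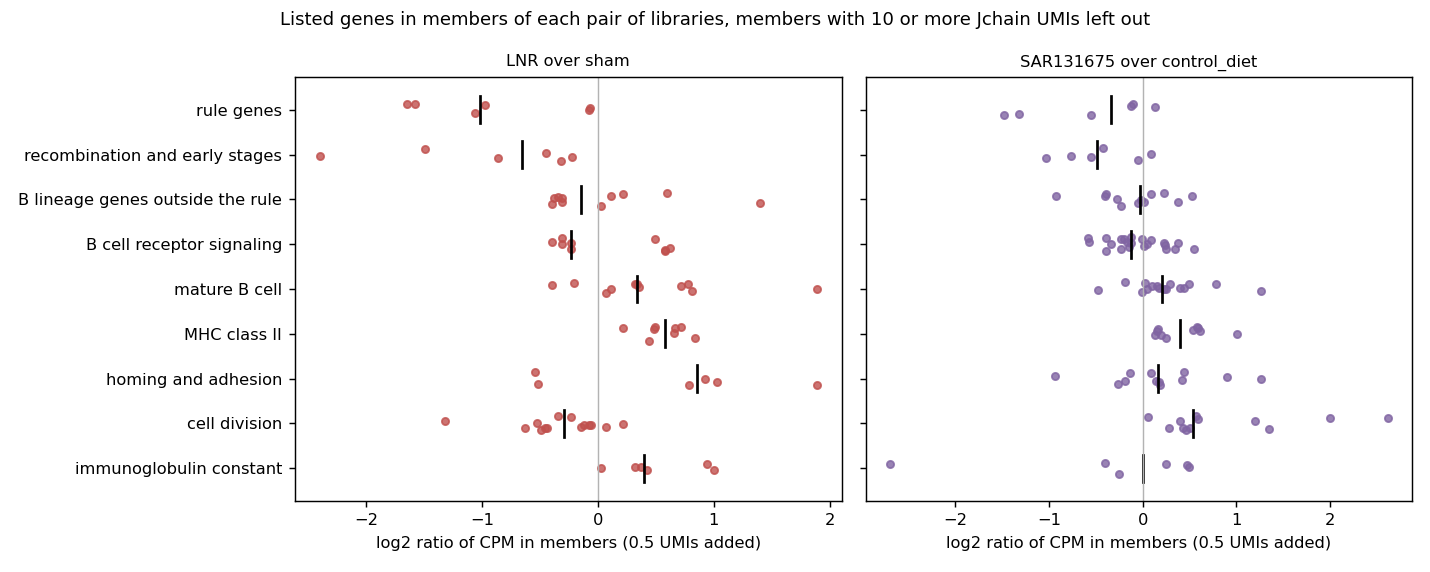
Log2 ratio of summed CPM (0.5 UMIs added) between the members of each pair for the genes of 9 lists, with the 3 Jchain-rich members left out. Points are genes and black bars list medians; rule genes and early genes lie mostly left of 0 in both panels, and MHC class II genes right of 0 in both, although the latter changes in SAR131675 over control_diet when unsupported members are left out.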

How the data were processed

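The submitters name the 10x Genomics Single Cell 3' v3 chemistry for the capture of digit cells. For 113503 barcodes the authors made UMI counts with Cell Ranger and deposited them unnormalized. The submitters' processing notes name Cell Ranger 6.1.2 and GRCm39, and the file headers name 6.1.2 for LNR and sham and 8.0.1 for SAR131675 and control_diet. Whether intronic reads were counted is not given in the sources used here. Total counts were 168507188 UMIs in LNR, 175998346 in sham, 585284877 in SAR131675 and 448276501 in control_diet. LNR and sham shared 101 barcodes and SAR131675 and control_diet 210, with 0 members shared. Libraries of different pairs shared only 0 to 2 barcodes. Whether all libraries used the same chemistry was not tested.

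Cells and members were selected by the limits and the rule given above. The members and gene lists were chosen with earlier results of these data known. Scrublet, run in scanpy 1.11.5 at an expected 0.8% per 1000 cells, called 7.41% of LNR, 6.97% of sham, 4.67% of SAR131675 and 0.907% of control_diet cells doublets, and these were kept except in 1 alternative. The setting expected 15.9, 16.5, 23.3 and 19.2% in the same order, so the calls fell short in every library, most in control_diet. Members called doublets were 3, 3, 11 and 0, so the alternative left the control_diet members unchanged. UMIs were summed per library and class and tested with edgeR 4.0.16 (quasi-likelihood test, library as block, Benjamini-Hochberg adjustment, threshold 0.05) in R 4.3.3, with DESeq2 1.42.0 as an alternative. Values after +/- are approximate standard errors (SE), the absolute log2 difference divided by the square root of the test's F statistic. The fits were also run on simulated counts with the same dispersion for every gene and no difference between libraries except depth. Such a run does not show how the fits handle differences between the pairs, or cells that hold most UMIs of a gene. Each library pools 10 mice, so p-values measure the spread over 4 libraries that also differ in condition and, for LNR and sham, may share mice. Shares have exact Clopper-Pearson intervals, and ratios exact conditional intervals, which cover counting error only. The ratio intervals treat the totals as fixed and suit rare counts, so they are too wide where a share is high. Genes named outside the lists were the 10 largest fitted changes in each direction past the threshold and of the same sign in every library. Between conditions they were the 5 largest ratios in each direction with at least 50 UMIs. Some genes of the lists are counted but not reported here by name.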

Additional observations from a re-analysis of the deposited data

Results flagged for a closer look

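A control_diet cell outside the members held 36 Jchain UMIs, a signal in cells that the comparisons did not use. It had 590 UMIs in all, 183 of them Igkc and 87 Ighm, and a UMI of 1 rule gene, Cd79a, so the rule left it out.

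Barcodes that met the rule but lay outside the limits on cells numbered 4 in LNR, 1 in sham, 12 in SAR131675 and 6 in control_diet, 23 in all. With the upper limits on genes and UMIs dropped, surrogate light chain members were 4 of 50 in LNR, 19 of 57 in sham, 8 of 100 in SAR131675 and 14 of 61 in control_diet.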

How the results depend on the processing

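Without a filter on low counts, 537 genes were higher and 893 lower than in T cells. The library was the block of the paired fit. With no replicate block the calls were 90 higher and 149 lower against T cells and 237 higher and 781 lower against other Ptprc cells, and Cd74 had an adjusted p of 0.230 and 0.334. Leaving out 1 library at a time gave 166 to 334 higher and 256 to 513 lower against T cells, and 299 to 526 higher and 1021 to 1325 lower against other Ptprc cells. The lowest counts came without SAR131675, and without control_diet 189 genes were higher and 302 lower than in T cells. Member shares in LNR, sham, SAR131675 and control_diet were 0.106, 0.169, 0.237 and 0.158% with at least 3 rule genes, 0.103, 0.0834, 0.198 and 0.166% in cells thinned to 1500 UMIs, and 1.27, 1.26, 4.70 and 3.32% of cells with a Ptprc UMI. In thinned cells of LNR and sham, surrogate light chain shares were 21.1 and 56.25%, mature shares 42.1 and 18.75% and light chain shares 68.4 and 43.75%, and the Sdc1, Prdm1 or Jchain shares were 10.5, 12.5, 7.27 and 2.70% over the 4 libraries. The surrogate light chain share was 8.0% in SAR131675 with no upper limits, and 6.0% in control_diet with supported members and 5.45% with at least 3 UMIs. Mature and light chain shares were each 94.0% in supported control_diet members, and Rag1, Rag2 or Dntt was found in 0% of SAR131675 members with called doublets removed.

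For genes over 2-fold apart between conditions, at least 50 UMIs left 114 higher and 121 lower in SAR131675 and 41 higher and 25 lower in LNR. No upper limits gave 756 higher in SAR131675 and 324 in LNR, and surrogate light chain members alone gave 67 higher in LNR. Directions turned among surrogate light chain members for Lef1 (0.45), Col1a2 (-3.26), Igll1 (0.61) and Vpreb1a (0.76) in SAR131675 over control_diet, and for Dcn (-5.20), Ighm (0.54), Igll1 (0.52) and Vpreb1a (0.45) in LNR over sham. They turned without Jchain-rich members for Ighm (-0.40) in the diet pair and for Igkc (0.43) and Ighm (0.028) in the surgery pair, and with no upper limits for Krt1 (2.30) and Cd74 (-0.13) in LNR over sham. In SAR131675 over control_diet Cd74 turned with supported members (-0.17) and with no upper limits (-0.0058). The causes were not tested, beyond the fewer cells or genes that some alternatives hold. The test of surrogate light chain against other members and its alternatives were not run, since too few libraries had enough cells. The settings on Jchain-rich members, Igll1 alone and 3 UMIs were chosen after seeing the data.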
